A study of Rattus norvegicus with 9 samples.

Results

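Voltage-gated sodium and calcium channel transcripts were followed in rat hippocampal RNA in 36 genes of 14217 named on the array, read through 52 of its 31042 probe sets. Members were all probe sets whose platform gene symbol names a sodium channel alpha or beta subunit (Scn genes) or a calcium channel alpha1, alpha2delta, beta or gamma subunit (Cacna1, Cacna2d, Cacnb and Cacng genes). The rule used names only and no measured value, but the members were chosen with earlier results of these data known. The 9 arrays, from rats of unstated strain and age, form 3 groups of 3: hippocampal neurons kept in artificial cerebrospinal fluid without ketone bodies (control), and hippocampal RNA after 1 h or 6 h of exposure to ketone bodies. The labels give no ketone concentration and no exposure time for the control. Nor do they state that replicates came from different animals or cultures, and p-values then cover only the spread between these arrays, which may be technical.

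Voltage-gated sodium channels consist of a pore-forming alpha subunit with accessory beta subunits, and their opening carries the rising phase of the action potential. Voltage-gated calcium channels have an alpha1 pore that is carried to the membrane and tuned by beta and alpha2delta subunits. In hippocampal neurons, P/Q and N type channels at terminals trigger transmitter release, L type channels link activity to transcription, and T type channels support burst firing. Most proteins of the gamma family act mainly as transmembrane AMPA receptor regulatory proteins (TARPs), which bring glutamate receptors to synapses.

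The RNA carried markers of several cell types. Markers of neurons, such as Snap25 (control mean log2 12.62), were measured beside markers of oligodendrocytes (Mbp 12.62), astrocytes (Gfap 10.96) and microglia (Csf1r 7.87), so the RNA was not of neurons alone. In such mixed samples, fewer cells of a type and less RNA per cell cannot be told apart. The medians of log2(signal + 16) ran from 5.67 to 5.88 over the arrays before normalization, and arrays correlated at 0.945 to 0.988 with each other. The 1 h array 3 and the 6 h array 1 stood apart on the first principal component (35.5 and 39.4, against -27.7 to 11.0 on the others), which held 45% of the variance. The 7 members that were low on both are given with and without them. These members were picked by their values on those arrays, so a smaller decrease without them was partly set by the choice.

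No member passed an adjusted p of 0.05 by limma in any comparison, while 6 of the 18625 probe sets tested did so at 1 h (0.0322%), 5 at 6 h (0.0268%) and 0 for 6 h against 1 h (0%). The lowest adjusted p among members was 0.311 at 1 h (Scn3a), 0.622 at 6 h (Cacnb1) and 0.996 for 6 h against 1 h (Cacna2d3). At 1 h, 7 of 31 tested members (22.6%) had an unadjusted p under 0.05, beside 11.4% of all probe sets tested. Of these, 6 lay lower (19.4%, beside 4.67%) and 1 higher (3.23%, beside 6.68%). This excess did not hold under every scaling: after centring on array medians 3 of 31 (9.68%) had an unadjusted p under 0.05, a smaller share than the 14% of all probe sets. The sodium channel pores Scn3a and Scn2a, the sodium beta subunit Scn3b, the calcium channel pores Cacna1a and Cacna1h and the calcium beta subunit Cacnb2 made up the lower ones, and Cacnb1 the higher one. Leaving out 1 array gave 4 without control 1 (12.9%, beside 10.4% of all probe sets) and 3 without control 2 (9.68%, beside 9.19%). It gave 4 without control 3 (12.9%, beside 6.36%) and 2 without the 1 h array 1 (6.45%, beside 9.53%). These were the lowest counts, and the highest was 9, without the 6 h array 1 (29%, beside 14.9%).

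A larger share of the tested members than of all probe sets lay below control. At 1 h, 25 of 31 (80.6%) had a negative log2 change, beside 44.7% of all probe sets tested, and the median was -0.15 beside 0.029. At 6 h, 24 of 31 (77.4%) were negative, beside 46.2%, with medians of -0.14 and 0.015. How far the members stood from the rest depended on the scaling. Centring each array on its median in place of quantile normalization gave 18 of 31 negative at 1 h, beside 34.4% of all probe sets, and 19 of 31 at 6 h, beside 34.8%. The values as deposited gave 25 of 31 at each time, beside 51.3% and 51.7%. Both comparisons use the same 3 control arrays, so the 6 h count is not independent of the 1 h count. For 6 h against 1 h, 10 of 31 were negative, beside 53.0% of all, with a median of 0.09.

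**Figure D1:**
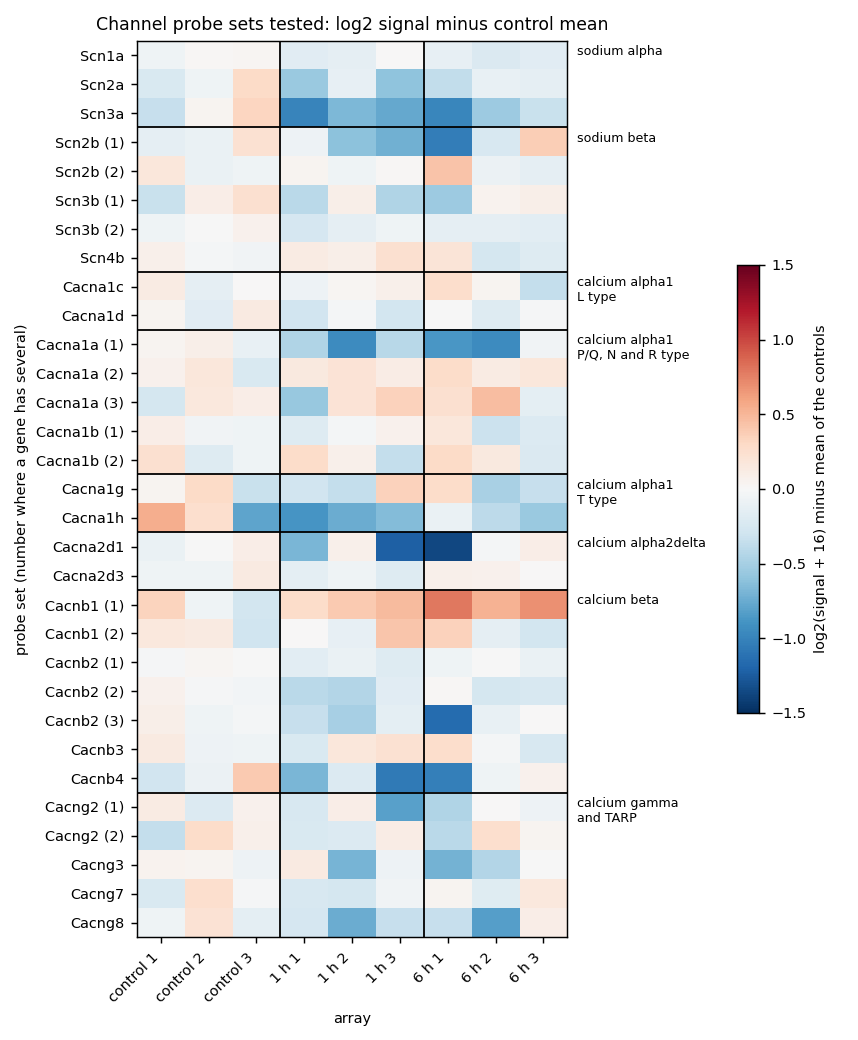
Each tile shows log2(signal + 16) on 1 array minus the mean of the 3 controls, for the 31 tested probe sets (vertical axis, grouped by role, numbered where a gene has several) across 9 arrays (horizontal axis). Blue tiles lie below the control mean, with Scn3a blue on all 6 ketone arrays and Cacnb1 (1) red on all 6, while Cacna2d1 is deep blue on the 1 h array 3 and the 6 h array 1.

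The 5 windows before the transcription starts of Scn3a, Scn2a, Cacnb2 and Cacna1a are shown because these genes had an unadjusted p under 0.05 at 1 h and an entry in the sequence table, and because Scn3a and Scn2a are direct neighbours read from opposite strands. Sequences are from RefSeq (GRCr8), 250 bases ending at the base before the start, 5′ to 3′ on the gene's strand, with capitals for the GC box GGGCGG on either strand.
Scn3a (chr3:70666199-70666448, minus strand): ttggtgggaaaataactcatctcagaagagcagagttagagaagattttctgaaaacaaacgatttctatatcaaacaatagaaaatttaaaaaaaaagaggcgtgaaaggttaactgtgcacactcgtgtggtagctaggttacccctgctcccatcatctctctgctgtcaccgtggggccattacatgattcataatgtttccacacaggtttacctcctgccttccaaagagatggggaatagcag
Scn2a (chr3:70710706-70710955, plus strand): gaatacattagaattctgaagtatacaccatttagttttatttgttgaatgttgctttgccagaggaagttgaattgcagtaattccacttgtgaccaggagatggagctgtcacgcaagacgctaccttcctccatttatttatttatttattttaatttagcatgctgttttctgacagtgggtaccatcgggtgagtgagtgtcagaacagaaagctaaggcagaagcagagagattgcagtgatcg
Cacnb2, upstream start (chr17:82472965-82473214, plus strand): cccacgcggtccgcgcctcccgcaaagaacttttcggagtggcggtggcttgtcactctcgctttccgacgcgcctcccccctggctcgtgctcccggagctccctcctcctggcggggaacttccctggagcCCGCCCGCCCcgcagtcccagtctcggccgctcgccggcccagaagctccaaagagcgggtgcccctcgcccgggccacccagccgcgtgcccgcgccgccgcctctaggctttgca
Cacnb2, downstream start (chr17:82596542-82596791, plus strand): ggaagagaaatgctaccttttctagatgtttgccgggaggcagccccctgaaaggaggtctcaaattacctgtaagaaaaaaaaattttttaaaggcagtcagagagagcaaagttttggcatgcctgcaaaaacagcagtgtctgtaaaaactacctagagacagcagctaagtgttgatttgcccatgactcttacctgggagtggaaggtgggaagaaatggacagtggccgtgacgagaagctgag
Cacna1a (chr19:40650469-40650718, minus strand): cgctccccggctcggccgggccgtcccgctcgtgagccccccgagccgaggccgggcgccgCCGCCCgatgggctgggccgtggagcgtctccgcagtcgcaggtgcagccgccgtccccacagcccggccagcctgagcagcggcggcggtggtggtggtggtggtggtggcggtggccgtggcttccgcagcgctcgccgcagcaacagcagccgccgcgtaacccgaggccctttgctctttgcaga
The Scn3a and Scn2a windows are rich in A and T, with a GC content of 41.6% and 39.6%, and the Cacnb2 windows differ from each other, with 73.2% and 45.6%. The Cacna1a window has 76.8%. The letters GGGCGG on either strand, with overlapping matches counted, occur in the upstream Cacnb2 window and the Cacna1a window and in none of the other 3. Cacnb1, Cacna1h and Scn3b had no entry in the table. Over the 29 windows of 26 member genes that matched, the median GC content was 62.8%, beside 51.2% over 33469 windows. The GC box was in 14 of the 29 member windows, beside 30.5% of all windows. The cyclic AMP response element TGACGTCA was in 0 (all windows 1.59%), the E box CACGTG in 0 (5.59%) and the TATA box TATAAA in 2 (12.9%), those of Cacna1s and Cacng2. Of the RE1 silencer element, bound by the neuronal repressor REST, the left part TCAGCACC was in 1 window, that of Cacng3 (1.25% of all), and the right part GGACAGCG in 0 (0.977%). Each motif was searched on both strands, and a match is a description of letters, not a bound site.

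Among sodium channel alpha subunits, which form the pore, 3 of 9 were tested: Scn1a, Scn2a and Scn3a. Scn3a, an alpha subunit prominent in the developing brain, was read by 1 tested probe set. It (1369691_at) gave log2 6.91, 7.30 and 7.58 on the control arrays, 6.27, 6.59 and 6.49 at 1 h, and 6.28, 6.72 and 6.93 at 6 h. All 1 h values lay below all control values, and at 6 h only the highest array reached into the control range. The log2 change was -0.81 ± 0.21 at 1 h (SE, n = 3 arrays per group throughout; limma adjusted p = 0.311), a ratio of 0.570, and -0.62 ± 0.21 at 6 h (adjusted p = 0.987). Without the arrays that stood apart, the changes were -0.82 ± 0.20 and -0.44 ± 0.20.

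Scn2a, the alpha subunit of the axon initial segment of excitatory neurons, lies directly beside Scn3a in the genome. Its values (1369662_at) were 8.97, 9.13 and 9.49 in control, 8.64, 9.08 and 8.60 at 1 h, and 8.83, 9.09 and 9.06 at 6 h. The 1 h array 2 lay within the control range and the others below it. The log2 change was -0.43 ± 0.17 at 1 h (limma adjusted p = 0.397) and -0.21 ± 0.17 at 6 h (adjusted p = 0.987), and without control 3 the 1 h value was -0.28. Without the arrays that stood apart, the changes were -0.34 ± 0.17 and -0.12 ± 0.17. Scn1a, the alpha subunit on which fast-spiking interneurons depend, was the brightest of the tested alpha probe sets, though brightness does not rank transcripts across probe sets. It read 9.08, 9.16 and 9.17 in control, 8.97, 9.01 and 9.14 at 1 h, and 9.02, 8.92 and 8.97 at 6 h (1369210_at). Every 6 h value lay below every control value, but the distance was small (-0.17 ± 0.09, adjusted p = 0.987), and the 1 h change was -0.09 ± 0.09 with a 95% interval of -0.29 to 0.10. The direction of all 3 alpha subunits was negative at both times, except that Scn1a gave 0.02 at 1 h when arrays were centred on their medians.

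The sodium beta subunits, single-pass membrane proteins that tune gating and cell adhesion, were measured by 5 tested probe sets of Scn2b, Scn3b and Scn4b. Scn3b had the highest signal of them at one of its probe sets (1383435_at), with 11.07, 11.12 and 11.20 in control, 10.88, 11.00 and 11.07 at 1 h, and 10.99, 11.00 and 10.97 at 6 h. The 6 h values lay below the control range, and the highest 1 h value equalled the lowest control value to 2 decimals. The log2 change was -0.15 ± 0.07 at each time (limma adjusted p = 0.438 and 0.987), but centring on array medians turned the 1 h value to 0.07 and gave 0.00 at 6 h. The other Scn3b probe set (1370850_at) gave -0.26 ± 0.21 and -0.14 ± 0.21, and -0.16 ± 0.18 and 0.07 ± 0.18 without the arrays that stood apart. Scn4b, the subunit linked to resurgent sodium current, was the only member whose 1 h values all lay above control: 8.57, 8.46 and 8.44 in control, 8.61, 8.58 and 8.73 at 1 h, and 8.68, 8.23 and 8.30 at 6 h. Its change at 1 h was 0.15 ± 0.13 (adjusted p = 0.649), and at 6 h -0.09 ± 0.13. Scn2b gave -0.47 ± 0.32 at 1 h and -0.30 ± 0.32 at 6 h in 1 probe set (1369311_at) and 0.00 ± 0.14 at 1 h in the other. The former became -0.35 ± 0.24 and 0.07 ± 0.24 without the arrays that stood apart, and -0.05 ± 0.18 and 0.12 ± 0.18 with an RNA quality measure, the 3'/5' ratio described further on, as a covariate.

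Over all members, 8 of 31 (25.8%) had every 1 h value below every control value, beside 8.26% of all probe sets tested, and 1 (Scn4b, 3.23%) had every value above, beside 13.0%. The 8 were Scn3a, Scn3b (1383435_at), Cacna1a (1386939_a_at), Cacna2d3, Cacng8 and the 3 probe sets of Cacnb2. This count was not made under other scalings. After centring on array medians, the 1 h change was 0.00 ± 0.11 for Cacna2d3, 0.07 for Scn3b and -0.08 ± 0.11 for Cacnb2 (1370178_at). It stayed at -0.60 for Cacna1a, -0.43 for Cacng8 and -0.30 and -0.33 for the other Cacnb2 probe sets. Scn3a stayed at -0.58 or lower under every setting. At 6 h, 2 of 31 (6.45%) lay wholly below, Scn1a and Scn3b, beside 3.15% of all, and 1 (Cacnb1, 3.23%) wholly above, beside 6.05%. In either direction that is 3 of 31 (9.68%), a share close to the 9.20% of all probe sets. The 1 h count in either direction was 9 of 31 (29%), beside 21.3%.

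**Figure D2:**
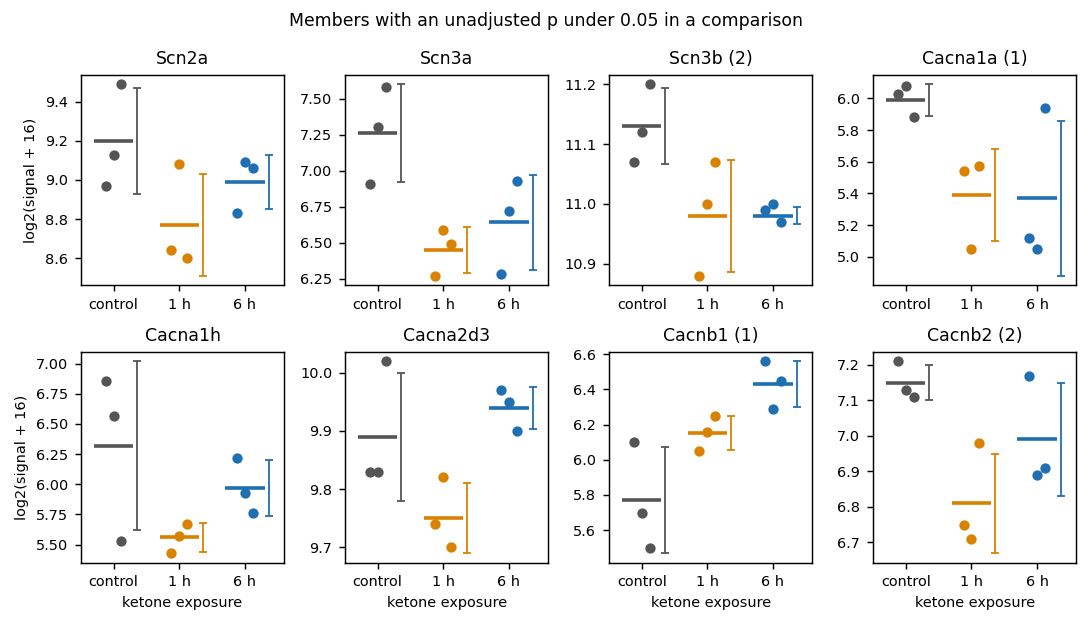
Points are log2(signal + 16) on single arrays, horizontal lines the means and side bars ± 1 SD (n = 3) for the 8 probe sets with an unadjusted p under 0.05 in a comparison. The vertical axes differ between panels, so that the gap of 0.15 in Scn3b (2), which vanished or turned when arrays were centred on their medians, looks as tall as that of 0.81 in Scn3a.

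Of the calcium channel pores of presynaptic terminals, Cacna1a (P/Q type) and Cacna1b (N type) were tested and Cacna1e (R type) was below the filter. The probe sets of Cacna1a gave changes of different sign. That with the lowest changes (1386939_a_at) read 6.03, 6.08 and 5.88 in control, 5.54, 5.05 and 5.57 at 1 h, and 5.12, 5.05 and 5.94 at 6 h. All 1 h values and all 6 h values but that of array 3 lay below control. The log2 change was -0.60 ± 0.24 at 1 h (limma adjusted p = 0.407) and -0.62 ± 0.24 at 6 h (adjusted p = 0.987). The other tested Cacna1a probe sets gave 0.15 ± 0.14 and -0.01 ± 0.26 at 1 h and 0.19 ± 0.14 and 0.18 ± 0.26 at 6 h. The direction of Cacna1a therefore depends on which of its probe sets is read.

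The N type pore Cacna1b had 7.99, 7.84 and 7.83 in control, 7.70, 7.86 and 7.95 at 1 h, and 8.06, 7.57 and 7.68 at 6 h at its brighter probe set (1370444_at). The groups overlapped throughout, with a 1 h change of -0.05 ± 0.14 and a 95% interval of -0.36 to 0.26. The L type pores, which link depolarization to transcription, differed little: Cacna1c (1370452_at) had 7.01, 6.76 and 6.90 in control, 6.81, 6.92 and 6.97 at 1 h, and 7.15, 6.93 and 6.53 at 6 h. Its change was 0.01 ± 0.16 at 1 h (interval -0.35 to 0.37) and -0.02 ± 0.16 at 6 h (interval -0.38 to 0.34). Cacna1d gave -0.20 ± 0.14 and -0.07 ± 0.14.

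Among T type pores, which open near rest and support bursts, Cacna1h (1368398_at) read 6.86, 6.57 and 5.53 in control, 5.43, 5.57 and 5.67 at 1 h, and 6.22, 5.93 and 5.76 at 6 h. The control arrays were spread widely, and control 3 lay among the 1 h values. The 1 h change was -0.76 ± 0.30 (limma adjusted p = 0.397), and single controls moved it: -0.49 without control 1 and -1.16 without control 3. Every 6 h value lay above every 1 h value, with a change of 0.41 ± 0.30 (adjusted p = 0.996). The other Cacna1h probe set (1379197_at) was below the filter and went the other way against control. Without the filter it gave 0.40 ± 0.22 at 1 h (limma adjusted p = 0.595) and 0.18 ± 0.22 at 6 h, so the direction of Cacna1h depends on the probe set. Cacna1g (1370508_a_at) had 6.16, 6.41 and 5.79 in control, 5.83, 5.76 and 6.47 at 1 h, and 6.40, 5.63 and 5.78 at 6 h, with overlapping groups and a 1 h change of -0.10 ± 0.26.

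The alpha2delta subunits raise the number of channels at the membrane, and that encoded by Cacna2d1 binds gabapentin. Cacna2d1 (1369649_at) followed the arrays that stood apart. It read 9.46, 9.55 and 9.66 in control, 8.88, 9.64 and 8.33 at 1 h, and 8.19, 9.53 and 9.66 at 6 h. The low values were those of the 1 h array 3 and the 6 h array 1, with the 1 h array 1 between them and the rest. The changes of -0.61 ± 0.39 and -0.43 ± 0.39 became -0.30 ± 0.19 and 0.04 ± 0.19 without the arrays that stood apart. Cacna2d3 (1390358_at) read 9.83, 9.83 and 10.02 in control, 9.74, 9.82 and 9.70 at 1 h, and 9.97, 9.95 and 9.90 at 6 h. Its 1 h values were the lowest of the 9, and it was the only member with an unadjusted p under 0.05 for 6 h against 1 h (0.19 ± 0.08, limma adjusted p = 0.996). That is 1 of 31 (3.23%), beside 2.72% of all probe sets tested (1.31% higher and 1.41% lower). The count was 0 without control 1, the 1 h array 1, the 1 h array 3 or the 6 h array 3 (beside 2.04% to 2.39%). It was 2 without control 3 (6.45%, beside 2.92%), the 1 h array 2 (6.25%, beside 4.06%) or the 6 h array 1 (6.45%, beside 8.44%).

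The calcium beta subunits, cytoplasmic proteins that carry the pore to the membrane, gave changes of both signs. Cacnb1 (1378073_at) read 6.10, 5.70 and 5.50 in control, 6.05, 6.16 and 6.25 at 1 h, and 6.56, 6.29 and 6.45 at 6 h. All 6 h values lay above all others, and at 1 h only array 1 lay under the highest control. The change was 0.39 ± 0.17 at 1 h (limma adjusted p = 0.427) and 0.66 ± 0.17 at 6 h (adjusted p = 0.622), a ratio of 1.58. The other Cacnb1 probe set, at a control mean of 7.40, gave 0.10 ± 0.21 and -0.02 ± 0.21. Without control 3 the 1 h change of the former was 0.25. At 6 h, 3 of 31 members (9.68%) had an unadjusted p under 0.05, beside 4.25% of all probe sets. Cacnb1 was the higher one (3.23%, beside 2.79%), and Scn3a and Cacna1a the lower ones (6.45%, beside 1.47%). That count was 5 of 32 without the 1 h array 2 (15.6%, beside 4.23% of all). It was 1 of 31 without the 6 h array 1 (3.23%, beside 5.25%) and 7 of 31 without the 6 h array 3 (22.6%, beside 8.62%).

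Cacnb2 lay lower at 1 h in each of its 3 probe sets, with no overlap with control in any of them. The one with an unadjusted p under 0.05 (1374717_at) read 7.21, 7.13 and 7.11 in control, 6.75, 6.71 and 6.98 at 1 h, and 7.17, 6.89 and 6.91 at 6 h. The 1 h arrays were lowest, apart from array 3, which lay above the lower 6 h values. Its change was -0.34 ± 0.13 at 1 h (limma adjusted p = 0.392) and -0.16 ± 0.13 at 6 h. The others gave -0.15 ± 0.10 and -0.33 ± 0.27 at 1 h and -0.06 ± 0.10 and -0.42 ± 0.27 at 6 h. With the 3'/5' ratio as a covariate the last of them (1388023_a_at) gave -0.05 ± 0.23 at 1 h, and after centring the other (1370178_at) gave -0.08 ± 0.11. At 6 h, 1388023_a_at read 4.69, 5.73 and 5.84, so its 6 h change came from array 1. Without the arrays that stood apart it gave -0.42 ± 0.15 at 1 h and -0.05 ± 0.15 at 6 h. The 3 probe sets report on 1 gene in the same RNA and are not separate replicates. Cacnb3 (1387042_at) read 8.96, 8.74 and 8.76 in control, 8.59, 8.99 and 9.05 at 1 h, and 9.08, 8.79 and 8.58 at 6 h, with a 1 h change of 0.05 ± 0.16. Cacnb4, mutated in the lethargic mouse, gave -0.65 ± 0.32 at 1 h and -0.34 ± 0.32 at 6 h, and -0.44 ± 0.22 and 0.00 ± 0.22 without the arrays that stood apart.

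**Figure D3:**
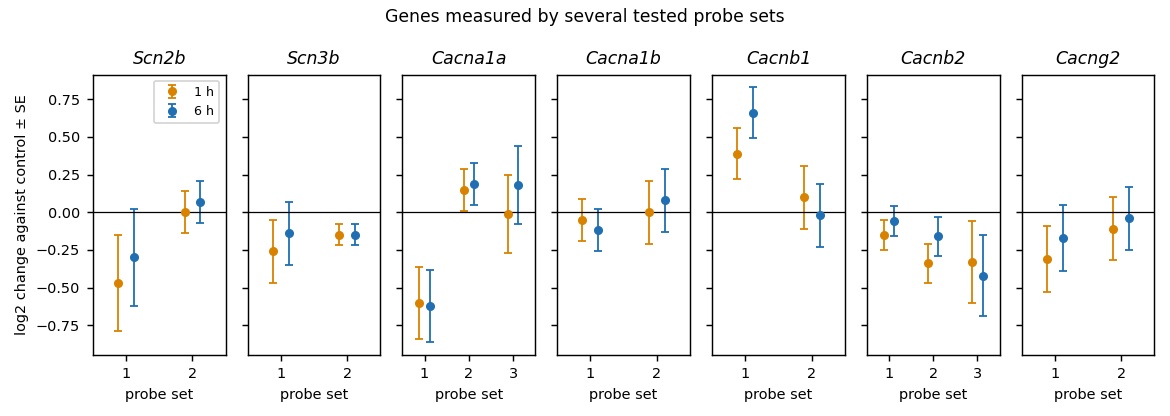
Points are limma log2 changes against control at 1 h (orange) and 6 h (blue) with ± SE bars, for each tested probe set (horizontal axis) of the 7 genes that have several. The 3 probe sets of Cacnb2 lie below 0, while Cacna1a and Cacnb1 each have 1 probe set (number 1) away from the others.

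All 5 tested probe sets of the gamma family were negative at 1 h under quantile normalization, as deposited and after centring, with a range of -0.44 to -0.11 and 0 of them with an unadjusted p under 0.05 by limma (lowest adjusted p = 0.494). With the 3'/5' ratio as a covariate Cacng3 gave 0.05 ± 0.15 at 1 h. Cacng3, a TARP of forebrain neurons, was the brightest (1370757_at), with 9.17, 9.16 and 9.04 in control, 9.25, 8.42 and 9.04 at 1 h, and 8.41, 8.68 and 9.11 at 6 h. Low values stood on the 1 h array 2 and the 6 h arrays 1 and 2, and the groups overlapped (-0.22 ± 0.22 at 1 h, -0.39 ± 0.22 at 6 h). Cacng8, an abundant hippocampal TARP, read 5.66, 5.95 and 5.58 in control, 5.48, 4.98 and 5.39 at 1 h, and 5.38, 4.90 and 5.83 at 6 h. Every 1 h value lay below every control value (-0.44 ± 0.24, adjusted p = 0.494). The founding TARP Cacng2 (stargazin) gave -0.31 ± 0.22 and -0.11 ± 0.21 at 1 h in its pair of probe sets, and Cacng7 gave -0.18 ± 0.17. Without the arrays that stood apart, the former Cacng2 probe set (1368759_at) gave -0.06 ± 0.15 at 1 h, and at 6 h its -0.17 ± 0.22 became -0.03 ± 0.15.

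Of the 52 members, 21 probe sets lay below the filter of log2 5.21 (a signal of about 21) on the mean over all arrays, and 14 genes had no tested probe set. Several are known from other tissues: Scn4a, Cacna1s and Cacng1 from skeletal muscle, Scn9a, Scn10a and Scn11a from sensory neurons, and Cacna1f from the retina. Muscle markers Ckm, Myh4 and Tnnt3 and the sensory neuron marker Trpv1 were also below the filter, while Acta1, Calca and Prph were above it. Genes known from brain were below it too: Scn8a, the alpha subunit of nodes of Ranvier, Cacna1e, Cacna1i, Cacng4 and Cacng5. The others without a tested probe set were Scn7a, an atypical alpha subunit that senses sodium, and Cacng6. Values of the 21 ran from 4.02 to 5.71 and their means from 4.19 to 5.16, which is low signal and not a measured absence. The member just inside the filter was Cacng7, at a mean of 5.28, and the one just outside was a further probe set of Cacna1a (1367821_a_at), at 5.16.

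That Cacna1a probe set read 5.59, 5.66 and 5.71 in control, 4.99, 4.68 and 4.74 at 1 h, and 5.03, 4.50 and 5.54 at 6 h. Without the filter its 1 h change was -0.85 ± 0.24 (limma adjusted p = 0.388), nearer to that of 1386939_a_at than to the others of the gene. Another probe set below the filter belonged to the L type pore Cacna1c (1370451_a_at), with 5.23, 5.09 and 5.09 in control, 4.96, 5.04 and 4.87 at 1 h, and 4.62, 4.55 and 4.49 at 6 h. Its 6 h values lay below all others (-0.58 ± 0.13, limma adjusted p = 0.558 without the filter), while the tested Cacna1c probe set gave -0.02. Other probe sets below the filter went up. Cacng6 (1370784_a_at) had every 6 h value above every control value (0.59 ± 0.19, limma adjusted p = 0.994 without the filter). Scn9a (1368539_at) also lay wholly above control at 6 h, with means of 4.53 and 4.17. Differences at such low signals depend on the pseudocount of 16 added before the log.

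**Figure D4:**
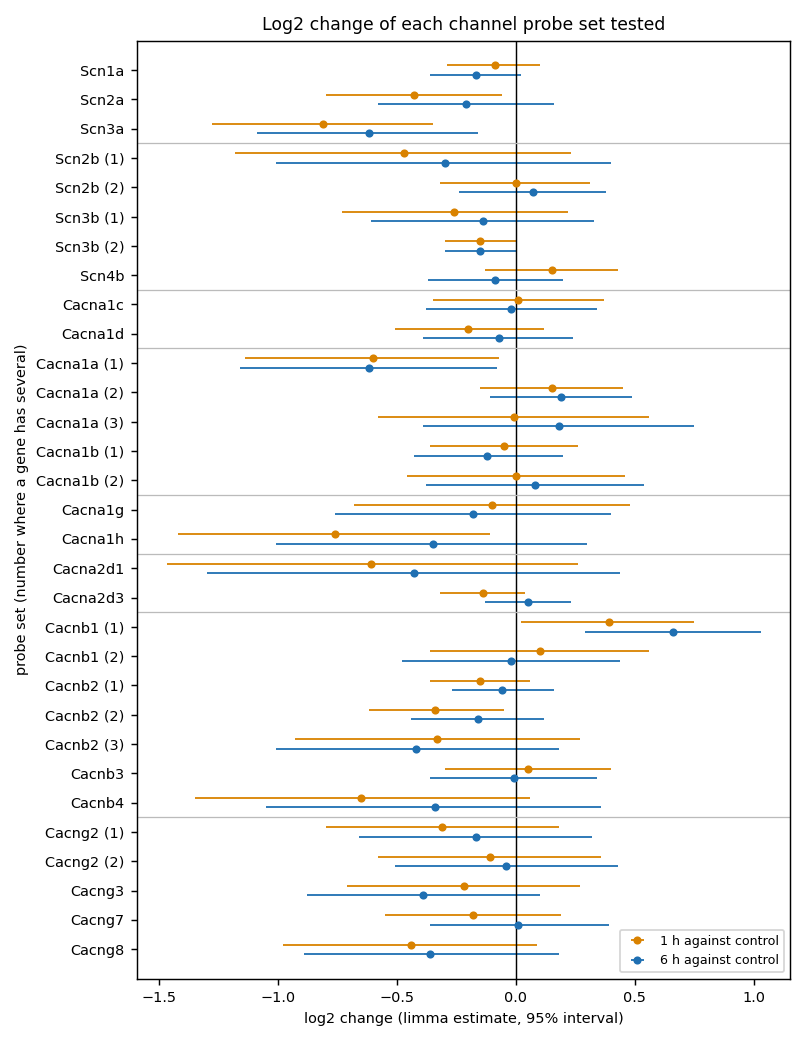
Points are limma log2 changes against control and bars their 95% intervals, at 1 h (orange) and 6 h (blue), for the 31 tested probe sets (vertical axis) in order of role. Most points lie left of 0, most intervals cross 0, and Cacnb1 (1) is the only one with both intervals to the right of it.

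RNA quality and single arrays moved beside these values. The beta-actin controls at the 3' and 5' ends of the transcript gave a log2 ratio, 3' over 5', that is higher when RNA is more degraded or labelled copies are shorter. It was 1.37, 1.27 and 1.42 in control, 1.39, 2.16 and 2.02 at 1 h, and 2.58, 1.92 and 1.03 at 6 h. The same ratio of the GAPDH controls was 0.13, 0.02 and 0.24 in control and 0.06, 0.14 and 0.12 at 1 h, within the control range. At 6 h it was 0.46, 0.07 and 0.04. Only the beta-actin ratio was used as a covariate, so those fits rest on 1 of these measures. The 1 h array 1 had a beta-actin ratio within the control range. On it, 24 of 31 tested members lay below their own mean over the 9 arrays, more than the 14 to 17 on the other ketone arrays or the 8 and 9 on the controls. The same share over all probe sets was not computed. The median deviation on that array was -0.12 for the members, beside 0.01 for all probe sets tested. The part of RNA quality in the channel values was not tested. The exact 2-sided permutation p of the beta-actin ratio was 0.2 at 1 h and 0.4 at 6 h (both adjusted to 0.6 over 3 comparisons). With 3 against 3 it cannot go below 0.1. With the ratio as a covariate, 27 and 25 of 31 members were negative, beside 48.6% and 50.3% of all probe sets, Scn3a gave -0.70 ± 0.22 at 1 h and the lower Cacna1a probe set -0.34 ± 0.20. Of the 31, 7 were among the lowest 3 of 9 values on both arrays that stood apart: Cacna2d1, Cacnb4, Cacng2 (1368759_at), Scn2a, Scn3a, Scn2b (1369311_at) and Scn3b (1370850_at). How many of all probe sets tested were low on both was not computed, so this count cannot be read as particular to the channels. Without those arrays, 28 of 32 tested members were negative at 1 h, beside 46.7% of all probe sets, and 23 of 32 at 6 h, beside 49.9%.

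**Figure D5:**
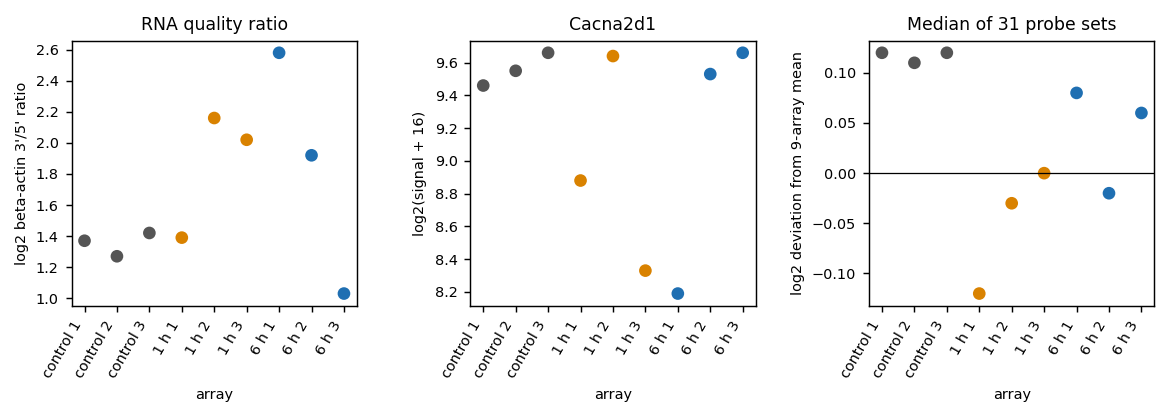
Per array (horizontal axis), the panels show the log2 beta-actin 3'/5' ratio, log2(signal + 16) of Cacna2d1, and the median over the 31 tested channel probe sets of the log2 deviation from their mean over 9 arrays. The controls share a low ratio and a median deviation of 0.11 to 0.12, and Cacna2d1 is lowest on the 1 h array 3 (8.33) and the 6 h array 1 (8.19). On the ketone arrays ratio and median deviation do not run together. They are 1.39 and -0.12 on the 1 h array 1, 2.58 and 0.08 on the 6 h array 1, and 1.03 and 0.06 on the 6 h array 3.

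Markers of excitatory neurons had negative changes beside the channels. All 6 were negative at 1 h (median -0.35) and at 6 h (median -0.22), and their summed signal was 5710 to 6500 in control, 4750 to 5270 at 1 h and 4430 to 5490 at 6 h. Pan-neuronal markers were negative in 6 of 6 at 1 h (median -0.14) and 5 of 6 at 6 h (median -0.11), with sums of 15500 to 16500, 14400 to 14700 and 14700 to 15400. Markers of interneurons had positive medians, with 2 of 7 negative at 1 h (median 0.19) and 1 of 7 at 6 h (median 0.06), and sums of 5750 to 6220, 6450 to 6890 and 6370 to 6480. The negative ones at 1 h were Gad2, with the largest change of the list (-1.30 ± 0.51, limma adjusted p = 0.399), and Gad1 (-0.09 ± 0.08). Of all probe sets tested, 44.7% were negative at 1 h and 46.2% at 6 h. The marker lists were not read under other scalings, and the part of these neuron markers in the channel values was not tested. Among glia, medians at 1 h were 0.02 over 7 astrocyte markers, 0.00 over 6 oligodendrocyte markers, -0.29 for the precursor marker Pdgfra and 0.21 over 6 microglial markers. They were 0.12 over 4 endothelial and -0.12 over 2 choroid plexus markers. Acta1 of skeletal muscle gave 0.35, and the sensory neuron markers Calca and Prph had a median of 0.10. The heart markers Myh6 and Tnni3 were below the filter. None of the markers of these lists passed an adjusted p of 0.05 by limma at 1 h or 6 h.

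Proteins that anchor, regulate or work beside these channels were read from a list of 33 genes, of which 31 were on the array and 28 were tested through 45 probe sets. By limma 0 of the 45 passed an adjusted p of 0.05 in any comparison (lowest 0.051 at 1 h, 0.402 at 6 h and 0.996 for 6 h against 1 h). At an unadjusted p under 0.05, 8 were lower at 1 h (17.8%, beside 4.67% of all probe sets) and 1 higher (2.22%, beside 6.68%). At 6 h, 3 were lower (6.67%, beside 1.47%) and 2 higher (4.44%, beside 2.79%). For 6 h against 1 h, 0 were lower (beside 1.41%) and 2 higher (4.44%, beside 1.31%). The 8 lower at 1 h came from Camk2a, Ank3, Rims1, Nalcn and Rimbp2 alone, with several probe sets each of Camk2a and Ank3. That share thus rests on few genes, and it was not computed under other scalings. The list was chosen with earlier results of these data known. Ank3 encodes ankyrin G, which anchors sodium channels at the axon initial segment, and gave -0.72 ± 0.19 and -0.97 ± 0.30 at 1 h in a pair of probe sets, and -0.88 ± 0.19 and -0.56 ± 0.30 at 6 h. Rims1, which tethers calcium channels at the active zone, gave -0.86 ± 0.18 at 1 h and -0.59 ± 0.18 at 6 h (limma adjusted p = 0.256 and 0.98). The kinase Camk2a, which is also in the excitatory neuron list, gave -0.89 ± 0.13 at 1 h and -0.44 ± 0.13 at 6 h at its probe set with the smallest p. The small GTPases Gem and Rrad, which bind calcium beta subunits and lower channel current, were the higher ones at 6 h. Gem gave 0.71 ± 0.17 (adjusted p = 0.491) and Rrad 0.47 ± 0.16 (adjusted p = 0.987), from control means of 5.14 and 5.23, near the filter level.

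For 6 h against 1 h, 4 members (12.9%) had every 6 h value above every 1 h value, beside 3.55% of all probe sets, and 0 had every value below, beside 4.04%. They were Cacna1h, Cacna2d3, Cacnb1 (1378073_at) and Cacnb2 (1370178_at). Cacnb2 gave 0.09 ± 0.10 there, with 7.53, 7.59 and 7.50 at 1 h and 7.63, 7.68 and 7.59 at 6 h, which meet at 7.59. The estimates for the 31 members ran from -0.24 (Scn4b) to 0.41 (Cacna1h), and the half-widths of their 95% intervals from 0.15 to 0.87 on the log2 scale. Differences smaller than these widths could not be told from 0 with 3 arrays per group, even before adjustment. The intervals are not adjusted for the number of probe sets tested, so larger differences could be missed as well. Cacna2d3 had an interval of 0.01 to 0.37 for 6 h against 1 h, with a limma adjusted p of 0.996. Scn3a had an interval of -1.28 to -0.35 for 1 h against control, with a limma adjusted p of 0.311.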

How the data were processed

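The authors deposited 1 table of signal intensity on a linear scale for 31099 probe sets on 9 arrays. The software that made it is not named by any source used here. The authors' deposited intensities have a mean of 150.05 on every array once the lowest and highest 2% of probe sets are left out, as read from the values. The number of arrays limits the precision, since no counts lie behind the values. Control probe sets (57) were dropped and values taken as log2(signal + 16). Array medians spanned 0.206, over a limit of 0.2, so quantile normalization followed. Probe sets with a mean under the 40th percentile were left out, which kept 18625.

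Each comparison came from 1 fit of all 9 arrays with limma 3.58.1 in R 4.3.3 (group means, intensity trend, 6 residual degrees of freedom), with Benjamini-Hochberg adjusted p-values over all probe sets tested and a threshold of 0.05. Differences are on the log2(signal + 16) scale, which understates those at low signal. The members and all lists (channel partners, cell type markers) were chosen with earlier results of these data known. Values on every array are printed for members with an unadjusted p under 0.05 in a comparison or the F test and for the brightest probe set of each role. Scn4b, Cacna2d1, Cacng8, Cacnb2 (1370178_at) and all probe sets below the filter that are given with values were added after their values were seen. Of the partners, at most 5 per comparison were to be named.

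All 52 members matched the rat gene table by Entrez number with the same symbol. No probe set listed with several genes matched the rule. Replicate numbers were not used as pairs in the main fit. Deviations of same-numbered arrays correlated at -0.36 to 0.54. Arrays with different numbers were not compared in this way, so pairing could not be decided. As alternatives, values were left as deposited or centred on array medians, with pseudocounts of 1 and 64, no filter or the 60th percentile, no trend, array weights, a replicate block, arrays of the compared groups alone, the brightest probe set of each gene, the 3'/5' ratio as a covariate and leaving out each array. Leaving out the arrays that stood apart was chosen after seeing the data. Simulated data were used to test the steps.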

Additional observations from a re-analysis of the deposited data

How the results depend on the processing

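No member passed an adjusted p of 0.05 by limma under any of 22 alternative settings, and the lowest adjusted p was 0.108 at 1 h (array weights), 0.282 at 6 h (without the 6 h array 3) and 0.58 for 6 h against 1 h (without the 6 h array 1). The count of members with an unadjusted p under 0.05 at 1 h was 7 of 31 as reported. It was 3 of 31 after centring on array medians (9.68%, beside 14% of all probe sets) and 4 of 18 with the filter at the 60th percentile (22.2%, beside 12.7%). It was 3 of 22 with 1 probe set per gene (13.6%, beside 13.3%) and 4 of 31 with the 3'/5' ratio as a covariate (12.9%, beside 7.53%). With single arrays left out it lay between 2 (6.45%, beside 9.53%) and 9 (29%, beside 14.9%). At 6 h the count of 3 became 7 of 52 without a filter (13.5%, beside 4.58% of all) and 1 of 22 with 1 probe set per gene (4.55%, beside 4.61%). With 1 array left out it lay between 1 (3.23%, beside 5.25%) and 7 (22.6%, beside 8.62%). For 6 h against 1 h the count of 1 became 0 as deposited (beside 2.83% of all), after centring (2.14%) and with no intensity trend (2.93%). It became 2 without a filter (3.85%, beside 3.9%) and with array weights (6.45%, beside 6.96%). The count was also 2 with only the compared groups (6.45%, beside 2.19%) and without the 2 arrays that stood apart (6.25%, beside 4.88%). With 1 array left out it was 0 to 2. With the replicate number as a block, 0 members passed an adjusted p of 0.05 and the 6 h against 1 h count was 0. Whether the numbers pair the arrays could not be decided. The median change of the members at 1 h was -0.20 as deposited and -0.10 after centring, at 6 h -0.05 after centring and -0.08 without a filter, and for 6 h against 1 h 0.14 with array weights and without the 2 arrays. With 1 array left out it ran from -0.19 to -0.14, from -0.14 to -0.10 and from 0.05 to 0.11. Of 232 alternative values of the 11 changes with an unadjusted p under 0.05, 1 changed sign: Scn3b (1383435_at) at 1 h, 0.07 after centring. Of 671 alternative values of the 31 other named changes, 49 changed sign and 6 moved by more than the spread between arrays. Centring sets the median of each array alone and leaves differences between bright and dim probe sets, and the cause of the other shifts was not tested. Signal limits the low members most: those near log2 5.21 carry little above the pseudocount, and no background was measured.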
